A study of Mus musculus with 2 samples.

Results

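The 36 genes described here form a fixed list of cell cycle genes by name, chosen with earlier results of these data known, and were followed through the cell types of fatty mouse liver in 2 single-cell libraries. Of the 36 genes, 35 were among the 19059 genes counted in both libraries, and Ccnb1 was not analysed here. They fall into 8 genes of DNA synthesis (Mcm2, Mcm3, Mcm4, Mcm5, Mcm6, Pcna, Rrm2 and Tyms), called S phase genes here, 2 cyclins of the entry into S phase (Ccne1 and Ccne2), and 25 genes that act from G2 to the end of cell division, called mitotic genes here. The libraries came from livers of 27-week-old littermates kept for 20 weeks, from the age of 7 weeks, on HF/HSD, a diet rich in fat, fructose and cholesterol. In AEG-1DMAC mice, Cre recombinase driven by the Lyz2 (LysM) gene deletes floxed AEG-1, the product of the gene Mtdh, in myeloid cells, which are macrophages, monocytes and neutrophils. AEG-1fl/fl mice carry the floxed allele and serve as the controls. Each genotype has 1 library, both sexes were used in the feeding experiment, and whether a library holds 1 liver or several is not given in the sources used here. Flash-frozen liver was fixed and dissociated, and gene-specific probes hybridized to the RNA were counted in each cell.

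A cell that divides passes from G1 through S phase, when its DNA is copied, and through G2 into mitosis, and the genes of each step are switched on in waves. The Mcm proteins form the helicase that opens the DNA, Pcna is the clamp that holds the polymerase, and Rrm2 and Tyms make nucleotides. Cdk1 with cyclins A and B drives entry into mitosis, Aurora and Polo kinases and kinesin motors build the spindle, and the Cdc20 and Ube2c proteins mark cyclins for destruction at its end. Most hepatocytes of an adult liver rest outside the cycle but can re-enter it after injury, and many have more than the usual number of chromosomes. Kupffer cells, the resident macrophages of the liver, can renew themselves by dividing in place. The S phase wave is driven in large part by E2F factors, and the mitotic wave by a complex of B-Myb, FoxM1 and MuvB proteins that acts through the cell cycle homology region (CHR) and CCAAT boxes.

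Of the 36 listed genes, 29 matched a promoter in RefSeq (GRCm38.p6, 250 bases before to 50 after the start site). Each motif was searched on both strands. A CHR (TTTGAA or TTTAAA) was present in 19 of the 21 mitotic promoters found, Ccnb1 included, in 3 of the 7 S phase promoters and in 27.6% of all 32851 promoters. A CCAAT box (CCAAT) was in 18 of the 21, 6 of the 7 and 37.4% of all. An E2F site (TTTCCCGC, TTTGGCGC, TTTCGCGC or TTCCCGCC, which can overlap) was in 1 of the 21, 3 of the 7 and 3.49% of all. Both a CHR and a CCAAT box were in 17 of the 21 mitotic promoters, in 3 of the 7 S phase promoters and in 10.7% of all. No promoter was matched for Ccna2, Ccne2, Aurkb, Kif20a, Tpx2, Mcm4 and Foxm1. The promoters of 5 members on which the comparisons below turn are shown from 150 bases before to 30 bases after the start site, 5′ to 3′ on the strand of the gene, with E2F, CHR and CCAAT matches of either strand in capitals. They are 3 mitotic genes (Ccnb2 at chr9:70421525-70421704, Cdk1 at chr10:69352883-69353062 and Top2a at chr11:99024160-99024339, all on the minus strand) and 2 S phase genes (Mcm6 at chr1:128359676-128359855, minus strand, and Rrm2 at chr12:24708104-24708283, plus strand).
Ccnb2: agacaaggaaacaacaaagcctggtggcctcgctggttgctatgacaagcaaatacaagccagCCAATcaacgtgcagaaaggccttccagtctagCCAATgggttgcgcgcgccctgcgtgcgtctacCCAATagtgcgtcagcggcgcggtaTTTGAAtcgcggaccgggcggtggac
Cdk1: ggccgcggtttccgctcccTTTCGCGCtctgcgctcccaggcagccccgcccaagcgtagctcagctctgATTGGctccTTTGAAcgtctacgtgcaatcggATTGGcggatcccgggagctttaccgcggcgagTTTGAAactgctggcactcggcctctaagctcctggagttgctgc
Top2a: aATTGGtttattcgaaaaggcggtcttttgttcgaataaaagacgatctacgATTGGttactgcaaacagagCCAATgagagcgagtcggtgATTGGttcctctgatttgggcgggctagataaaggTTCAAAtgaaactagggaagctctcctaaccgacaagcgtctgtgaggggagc
Mcm6: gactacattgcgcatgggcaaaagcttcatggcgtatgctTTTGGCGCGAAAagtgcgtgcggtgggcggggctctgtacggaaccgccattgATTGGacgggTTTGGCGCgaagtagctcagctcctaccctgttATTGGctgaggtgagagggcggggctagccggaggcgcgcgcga
Rrm2: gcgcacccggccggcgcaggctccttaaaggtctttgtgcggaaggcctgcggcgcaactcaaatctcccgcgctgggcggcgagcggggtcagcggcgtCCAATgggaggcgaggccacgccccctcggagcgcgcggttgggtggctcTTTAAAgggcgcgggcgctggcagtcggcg
The Ccnb2, Cdk1 and Top2a windows each hold a CHR and more than 1 CCAAT box, Mcm6 holds E2F sites and CCAAT boxes, and Rrm2 holds a CCAAT box and a TTTAAA. A match describes the letters of a promoter and shows no binding.

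The libraries held 2581 cells labelled AEG-1DMAC and 3535 labelled AEG-1fl/fl, with 79589511 and 90440089 counts in all, and 2571 and 3508 cells were kept once cells under 100 genes or over 10% of mitochondrial reads were dropped. The 2 libraries shared 10 cell barcodes. The Y chromosome genes Ddx3y (4821 and 5218 counts), Eif2s3y (3650 and 4656), Kdm5d (1578 and 2127) and Uty (2040 and 2283) were counted in both, so both held male cells. Whether female cells were also present was not tested. Mtdh went against the labels: macrophage-gated cells had 424 counts (117 CPM, counts per 1000000 counts of the class) in the library labelled AEG-1DMAC and 196 counts (27.0 CPM) in the library labelled AEG-1fl/fl, a log2 ratio of 2.12 (95% interval 1.87 to 2.37). In hepatocytes the values were 62.5 and 58.1 CPM. Macrophage-gated cells were 12.8% (11.5% to 14.1%) of the kept cells in the library labelled AEG-1DMAC and 22.8% (21.5% to 24.3%) in the library labelled AEG-1fl/fl. Where the Mtdh probes lie relative to the deleted part is not given in the sources used here. Why Mtdh was lower in macrophages labelled AEG-1fl/fl, the controls, was not tested. The values go against the labels but come from 1 library per label and do not settle them. Libraries are therefore named by their labels throughout, and every direction below is between labels, not between tested genotypes. Cells were gated by fixed lists of cell type markers that hold no cell cycle gene. This gave 1302 and 1189 hepatocytes, 329 and 801 macrophages, 232 and 322 endothelial cells, 174 and 273 stellate cells, 32 and 98 cholangiocytes, 53 and 104 T and NK cells, and fewer B cells, dendritic cells and neutrophils, in the library labelled AEG-1DMAC and the library labelled AEG-1fl/fl, in that order here and below. All classes were checked on the lists that gated them, of which all markers but 1 endothelial marker were detected. The median hepatocyte had 29178 and 31264 counts and the median macrophage 5894 and 5684. Hepatocyte markers in macrophage-gated cells stood at 55.0% and 38.3% of their level in hepatocytes, and in the other large nonparenchymal classes between 34.6% and 64.6%, so RNA of hepatocytes was present in every class. Hepatocytes were cut into terciles of each library by pericentral against periportal markers. The cuts lay at log2 values of -0.80 and 1.09 in the library labelled AEG-1DMAC and of -1.60 and 0.57 in the other. Pericentral markers had a median of 103 and 74.2 per 10000 counts in the pericentral tercile. Terciles of the same name thus hold cells of the same rank and not of the same marker level. The markers of the middle zone, which did not enter the cut, had medians of 1.38, 3.36 and 3.22 per 10000 counts in the pericentral, middle and periportal tercile of the library labelled AEG-1DMAC and of 1.03, 3.003 and 4.99 in the other library, so the middle tercile is named by its place in the ranking and not as a zone. With 1 library per genotype no test was made. All intervals are 95% intervals, exact Poisson for levels and Clopper-Pearson for shares and ratios, and cover counting error only, not the spread between animals and not the clustering of counts within cells.

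Macrophages, endothelial cells, cholangiocytes and T and NK cells carried several times more cell cycle RNA per count than hepatocytes in both libraries. The 35 members summed to 116 CPM (113 to 118) and 147 CPM (144 to 150) in hepatocytes. In macrophages they summed to 581 CPM (557 to 606) and 684.3 CPM (665 to 704), which is 5.03-fold and 4.67-fold the hepatocyte level. Endothelial cells had 533 and 551 CPM, 4.61-fold and 3.75-fold the hepatocyte level, which was 2.47-fold and 2.63-fold without the 5 cells with the most member counts, an alternative added after the data were seen. Cholangiocytes had 558 and 498 CPM, and without the cell with the most member counts in each class and library 250.4 and 414 CPM, 2.23-fold and 2.95-fold the hepatocyte level. T and NK cells, with few cells, had 1488 CPM (1340 to 1647) and 1150 CPM (1052 to 1254), the highest of the classes with more than 50 cells, and 607 and 787 CPM without that cell. Stellate cells were the class in which the libraries parted most, with 134 CPM (116 to 153) and 346 CPM (323 to 369). The share of hepatocyte markers seen in each class would bring 63.6 and 56.1 CPM of member RNA into macrophages and 74.7 and 75.3 CPM into stellate cells, if it came from average hepatocytes, and the part of such RNA in the levels was not tested. In stellate cells of the library labelled AEG-1DMAC that is 74.7 CPM beside a level of 134 CPM. Because they hold most of the RNA, hepatocytes still gave 63.0% and 50.1% of all member counts, and macrophages 16.7% and 23.8%.

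**Figure D1:**
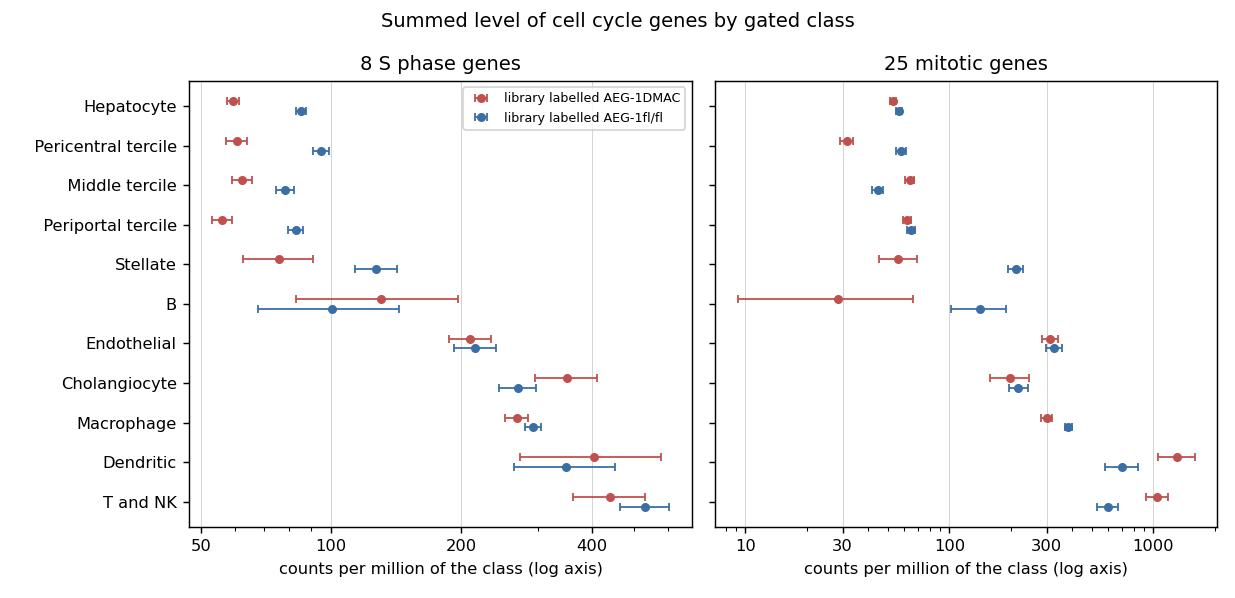
Summed level of the 8 S phase genes (left) and the 25 mitotic genes (right) in each gated class, in CPM on a log axis; points are single libraries and bars are exact Poisson 95% intervals of the counts. The S phase level of hepatocytes is 59.4 and 85.2 CPM and that of macrophages 268 and 293 CPM, and the mitotic level of stellate cells parts the libraries at 56.3 and 211 CPM.

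Both waves were higher in these classes than in hepatocytes, with the mitotic genes further above the hepatocytes than the S phase genes in macrophages and endothelial cells of both libraries. In macrophages the S phase genes stood at 268 and 293 CPM, 4.52-fold and 3.44-fold the hepatocyte level, and the mitotic genes at 299.9 and 383 CPM, 5.66-fold and 6.77-fold. In endothelial cells the corresponding ratios were 3.53 and 2.53 for S phase genes and 5.89 and 5.75 for mitotic genes. T and NK cells had 7.41-fold and 6.22-fold the hepatocyte level of S phase genes, and 19.7-fold and 10.54-fold that of mitotic genes. Without the cell with the most member counts in each class and library, a check added after the data were seen, these were 7.23-fold and 5.61-fold for S phase genes and 3.50-fold and 5.70-fold for mitotic genes. Cholangiocytes were the exception in the library labelled AEG-1DMAC, with 5.90-fold for S phase and 3.75-fold for mitotic genes, but 1 of their 32 cells held 134 of the 236 member counts. The G1/S cyclins, with 47 and 61 counts in macrophages, were 4.02-fold and 1.74-fold the hepatocyte level there. B cells, with 29 and 78 member counts in all, had 165 and 262 CPM. Neutrophils, mature cells that no longer divide, gave a background of 1 and 32 counts, which is 138 CPM (3.50 to 771) and 241 CPM (165 to 340). Of the 32 counts, 12 lay in 1 of 45 cells, and the level without that cell was 162 CPM. The share of hepatocyte markers in these neutrophils would bring 94.5 CPM, if it came from average hepatocytes. In the library labelled AEG-1fl/fl that background lay above the hepatocyte level and below the levels of macrophages, endothelial cells, cholangiocytes and T and NK cells.

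Gene by gene, nearly every member was higher in macrophages than in hepatocytes. All 35 members in the library labelled AEG-1DMAC and 31 of 35 in the other were at least 2-fold higher, beside 31.6% and 36.4% of all genes. The cytokinesis motor Kif23 stood furthest apart, with 22.2-fold and 20.8-fold, and Tyms the least, with 2.02-fold and 1.46-fold. Among proliferation and transcription genes, the proliferation marker Mki67 was 7.08-fold and 9.58-fold higher, the DNA untangling enzyme Top2a 7.35-fold and 6.79-fold, and the transcription factor Foxm1 7.36-fold and 7.51-fold. Among the mitotic kinases, Bub1 of the spindle checkpoint was 13.7-fold and 11.9-fold higher and Aurkb 9.29-fold and 8.74-fold. Ratios of the S phase genes in macrophages were more modest. The helicase subunit Mcm5 had 11.5-fold and 5.29-fold, Pcna 3.62-fold and 4.13-fold, and Rrm2 3.51-fold and 1.85-fold.

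The other classes were compared in the same way. In endothelial cells 33 and 32 of 35 members were at least 2-fold over hepatocytes, beside 34.8% and 43.2% of all genes, and the checkpoint kinase Bub1b stood at 12.1-fold and 12.3-fold. In T and NK cells 34 and 35 of 35 members passed 2-fold, beside 33.0% and 40.4% of all genes, with Mki67 at 31.1-fold and 21.5-fold and the spindle motor Kif11 at 44.2-fold and 21.1-fold. There 25 and 26 of the 35 passed 2-fold without 1 cell per class and library, beside 32.3% and 39.9% of all genes, and Mki67 stood at 4.77-fold and 15.7-fold (6 and 30 counts) and Kif11 at 6.80-fold and 17.4-fold (2 and 9 counts). Cholangiocytes had 26 and 26 of 35 past 2-fold, beside 41.4% and 44.6% of all genes, with Mcm6 at 20.0-fold and 5.33-fold, and without 1 cell 10 and 24 of 35, beside 40.1% and 44.3% of all genes. In stellate cells 5 of 35 members passed 2-fold in the library labelled AEG-1DMAC, beside 26.9% of all genes, and 25 of 35 in the library labelled AEG-1fl/fl, beside 36.4%.

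**Figure D2:**
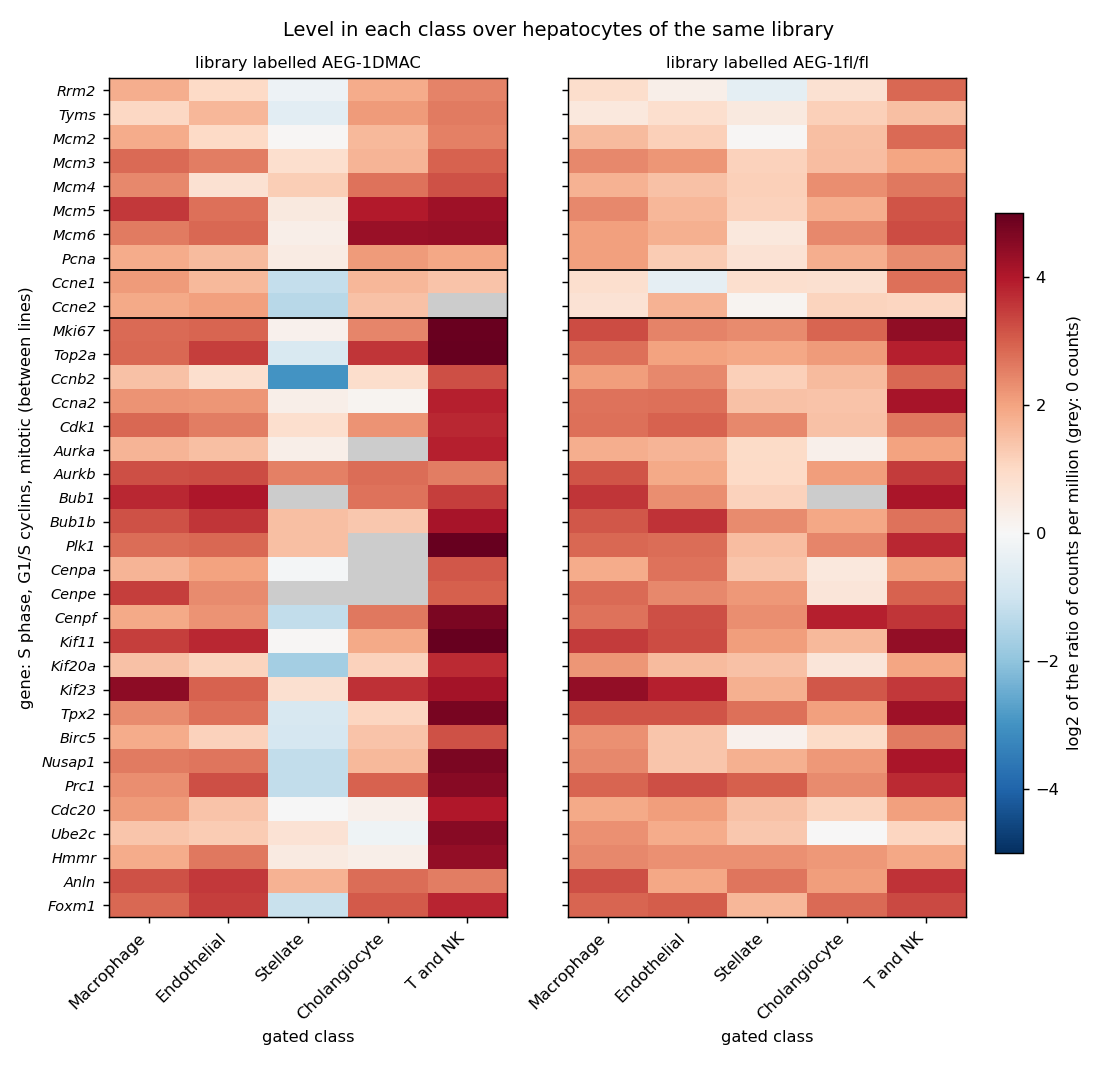
Level of each of the 35 members in 5 nonparenchymal classes over hepatocytes of the same library, as log2 of the ratio of CPM values (colour scale), with S phase genes above the first line, G1/S cyclins between the lines and mitotic genes below; grey marks 0 counts. Macrophage and T and NK columns are above hepatocytes for nearly all genes in both libraries (Kif23 in macrophages 22.2-fold and 20.8-fold), while stellate cells of the library labelled AEG-1DMAC pass 2-fold for 5 of 35 genes.

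The share of cells with at least 3 member counts depended on how deeply each cell was read. On all counts it was 54.7% and 59.5% of hepatocytes, 32.2% and 31.5% of macrophages, 20.3% and 17.7% of endothelial cells and 24.5% and 23.1% of T and NK cells. Within hepatocytes it went from 18.7% and 19.5% of the 326 and 298 cells with the fewest counts to 96.0% and 99.0% of the 326 and 297 cells with the most, while the member level went from 145 and 166 CPM to 105 and 141 CPM. At an equal 2000 counts drawn from every cell the order turned. Then 13 of 1302 hepatocytes (0.998%, 0.533% to 1.70%) and 18 of 1189 (1.51%, 0.900% to 2.38%) had 3 or more member counts, against 25 of 275 macrophages (9.09%, 5.97% to 13.1%) and 59 of 666 (8.86%, 6.81% to 11.3%). Macrophages of the 2 libraries thus had close shares, with wide overlap of their intervals, and macrophages lay above hepatocytes in both libraries.

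At the same depth the shares were 6.0% and 6.83% of endothelial cells, 12.8% and 11.1% of T and NK cells and 7.69% and 8.51% of cholangiocytes, with intervals that overlap those of macrophages. Stellate cells had 1 of 142 (0.704%, 0.0178% to 3.86%) and 8 of 214 (3.74%, 1.63% to 7.23%). As a background, 0 of 2 and 0 of 19 neutrophils had 3 counts, and 0 of 19 still allows a share of up to 15.8% by the limit of 3 cells (upper Clopper-Pearson bound 17.6%), with a median depth of 1796 and 1840 counts per neutrophil. Over both the gated and the unassigned cells, 66 and 151 cells had 3 or more counts at this depth, of which macrophages made up 37.9% and 39.1%, hepatocytes 19.7% and 11.9%, and endothelial cells 18.2% and 12.6%. At 6000 counts per cell, a depth chosen after the data were seen and reached by all hepatocytes, the share was 6.45% (5.18% to 7.93%) and 7.32% (5.90% to 8.95%) of hepatocytes and 27.6% and 26.6% of the deeper macrophages.

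**Figure D3:**
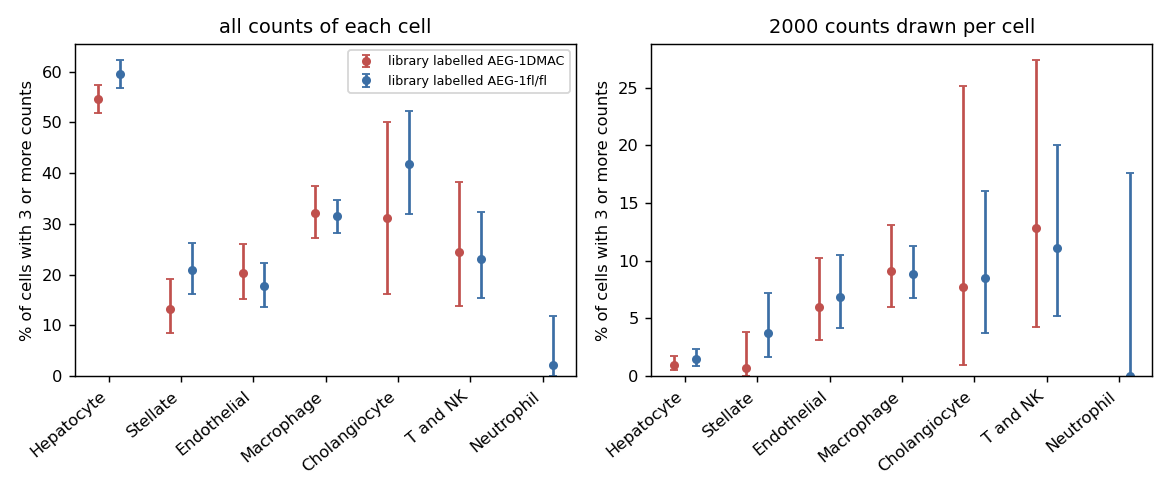
Share of cells with at least 3 member counts in 7 gated classes, on all counts of each cell (left) and on 2000 counts drawn per cell (right), in %; points are single libraries and bars Clopper-Pearson 95% intervals, and groups with fewer than 10 cells at 2000 counts, the neutrophils of the library labelled AEG-1DMAC, are left out. Hepatocytes lead on the left with 54.7% and 59.5% and are near 1% on the right, where macrophages stand at 9.09% and 8.86%.

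The counts were held by few cells, and in hepatocytes the mitotic genes were the more concentrated. There, 64 of 1302 cells (4.92%) and 41 of 1189 (3.45%) held 50% of the mitotic counts, against 168 (12.9%) and 114 (9.59%) for the S phase counts. Depth bears on these values. The cells with 50% of the S phase counts held 40.2% and 31.2% of all counts of hepatocytes, and those of the mitotic counts 12.7% and 8.81%. In macrophages 10 of 329 and 10 of 801 cells held 50% of the mitotic counts, and in endothelial cells 3 of 232 and 4 of 322. In stellate cells of the library labelled AEG-1fl/fl, 2 of 273 cells held 50% of the mitotic counts, and 1 of them held 225 of 535. In T and NK cells 1 cell of the library labelled AEG-1DMAC held 219 of 261 mitotic counts.

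Several of the cells with the most mitotic counts of their class detected most of the list at once. The leading hepatocyte, in the periportal tercile of the library labelled AEG-1fl/fl, had 404 mitotic and 59 S phase counts among 58121, detected 34 of the 35 members, and had 752 hepatocyte marker counts and 1.204 macrophage marker counts per 10000. The leading hepatocyte of the other library, in the middle tercile, had 210 mitotic and 9 S phase counts among 24010 and detected 28 members. It had 0.833 endothelial marker counts per 10000. The hepatocyte ranked 2 in that library, in the periportal tercile, had 153 mitotic counts and 27.2 endothelial marker counts per 10000. The endothelial gate minimum is 30, and the mean of that tercile was 2.41. Whether that hepatocyte is a mixed cell was not tested. The leading macrophage of the library labelled AEG-1fl/fl had 292 mitotic and 150 S phase counts with 416 macrophage marker and 56.3 hepatocyte marker counts per 10000. The stellate cell with 225 mitotic counts detected all 35 members. The gates required markers of its own class in each of these cells, so their presence is no separate check. That stellate cell had 145 stellate marker counts per 10000, where the gate minimum is 30. The leading stellate cell of the library labelled AEG-1DMAC had 12 mitotic counts and detected 8 members. The leading macrophage of that library had 208 macrophage marker and 118 hepatocyte marker counts per 10000. The macrophages ranked 2 to 5 there had 72.1, 129, 68.8 and 81.6 macrophage marker counts, near the gate minimum of 60 in part. Their hepatocyte marker counts were 1118, 733, 562 and 480, and whether they are mixed cells was not tested.

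**Figure D4:**
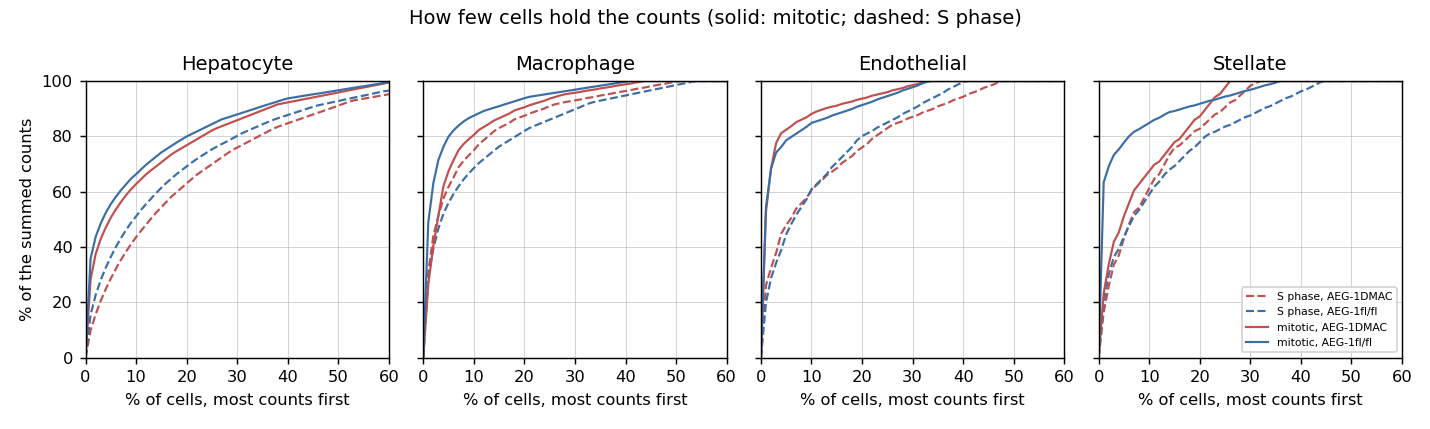
Share of the summed counts (%) held by the cells with the most counts, as a share of all cells of the class (%), for mitotic genes (solid) and S phase genes (dashed) in 4 classes of the library labelled AEG-1DMAC (red) and the library labelled AEG-1fl/fl (blue). In hepatocytes the mitotic lines rise faster than the S phase lines, with 50% of the mitotic counts in 4.92% and 3.45% of cells, and 50% of the S phase counts in 12.9% and 9.59%. The latter cells hold 40.2% and 31.2% of all counts of hepatocytes.

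The balance of S phase to mitotic counts was compared between classes only, since probes of different genes need not count alike. Hepatocytes had 1.12 (1.07 to 1.17) and 1.503 (1.44 to 1.56) S phase counts per mitotic count. Macrophages had 0.894 (0.819 to 0.976) and 0.763 (0.721 to 0.808), and endothelial cells 0.672 and 0.661, both below hepatocytes in each library. Cholangiocytes stood above hepatocytes in the library labelled AEG-1DMAC, with 1.76 (1.34 to 2.33), and at 1.24 (1.07 to 1.44) in the other. Stellate cells had 1.35 and 0.602, and T and NK cells 0.422 and 0.886. Mitotic counts lay in few cells in these classes and also in macrophages and endothelial cells. Without 1 cell per library, endothelial cells had 204 and 204 CPM of S phase genes and 226 and 269 CPM of mitotic genes. Pcna, which also serves DNA repair, gave a large part of the S phase counts, and without it the ratio was 0.767 and 1.14 in hepatocytes and 0.669 and 0.539 in macrophages. Within single cells at 2000 counts, 18 of the 25 and 37 of the 59 macrophages with at least 3 member counts had both kinds, and so did 9 of the 13 and 8 of the 18 hepatocytes.

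Macrophages with 3 or more member counts at equal depth were compared with the other macrophages on measures that did not choose them. They had a median of 6805 and 7830 counts, against 6481 and 6465, and 229 and 137 hepatocyte marker counts per 10000, against 427 and 160. Macrophage markers summed to 219 and 224 per 10000, against 174 and 202. Of the 13 markers, 10 were higher in them in both libraries, but the share of all genes that were is not given here. Lowest of the 10 were Mpeg1 (1.05-fold and 1.07-fold) and Adgre1 (1.06-fold and 1.13-fold). The part of the lower hepatocyte RNA in these ratios was not tested. Marco, a scavenger receptor named after its values were seen, stood highest with 2.64-fold and 3.15-fold. Among the listed markers that the paper names for Kupffer cells, Marco was thus higher in both libraries. Cd5l, Clec4f and Vsig4 were higher in these cells in the library labelled AEG-1fl/fl and lower in the other (Clec4f 0.815-fold and 1.12-fold). Timd4, also on the gate list, was 2.05-fold and 1.31-fold. The 10 genes outside the lists with the highest ratio in these cells were Ankle1, Cdca2, Neil3, Spag5, Stil, Troap, Pimreg, Clspn, Kif18b and Hist1h1b. The nuclease gene Ankle1 had 141 and 133 CPM in them against 0.644 and 0.316 CPM in the others, and the DNA glycosylase gene Neil3 84.9 and 109 CPM against 2.25 and 0.790 CPM. Since the cells were chosen by cell cycle counts, these values describe them and test nothing.

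Between the libraries, hepatocytes differed in S phase genes far more than in mitotic genes. S phase genes summed to 59.4 CPM (57.6 to 61.2) in the library labelled AEG-1DMAC and 85.2 CPM (83.0 to 87.3) in the library labelled AEG-1fl/fl, a log2 ratio of -0.52 (-0.58 to -0.46). Mitotic genes summed to 52.99 and 56.7 CPM, with a log2 ratio of -0.10 (-0.16 to -0.03), which became -0.03 (-0.10 to 0.04) without the cell with the most member counts in each library. The S phase value was -0.51 without those cells. The G1/S cyclins had 222 and 345 counts, a log2 ratio of -0.58. Of 35 members, 28 were lower in the library labelled AEG-1DMAC and 7 higher, with a median of -0.23 beside 0.01 for all 13142 genes with at least 20 summed counts. At least 2-fold, 2 members were lower and 0 higher, beside 3.99% and 1.72% of all genes, and 1 was lower without 1 cell per library, beside 3.90%.

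By role, all 5 helicase genes and all 3 genes of the clamp and nucleotides were lower in hepatocytes labelled AEG-1DMAC. Mcm5 had 2.76 and 5.62 CPM, a log2 ratio of -1.02 (-1.28 to -0.77), and Mcm6 4.74 and 9.11 CPM, -0.94 (-1.14 to -0.75). Rrm2, the small subunit of ribonucleotide reductase, had 8.57 and 16.8 CPM, -0.97 (-1.12 to -0.83), and was detected in 327 of 1302 and 447 of 1189 hepatocytes. Pcna differed least, with 18.7 and 20.9 CPM, -0.16 (-0.27 to -0.05). Among mitotic genes all 5 kinases were lower, 3 of them with an interval below 0, led by Aurkb with 0.684 and 1.40 CPM, -1.03 (-1.57 to -0.52). In 1 cell of the library labelled AEG-1fl/fl lay 19 Aurkb counts, and without 1 cell per library 0 of 25 mitotic genes were at least 2-fold lower. Ccnb2, a cyclin of mitosis, went the other way with 5.14 and 3.11 CPM, 0.72 (0.48 to 0.97), while its partner Cdk1 had 2.95 and 3.63 CPM, -0.30 (-0.57 to -0.03). Mki67 had 5.66 and 5.25 CPM, 0.11 (-0.10 to 0.32).

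The library ratio of mitotic genes changed sign between terciles of the hepatocyte ranking, while that of S phase genes was below 0 in each; differences between terciles were not tested. S phase genes were lower in the library labelled AEG-1DMAC in the pericentral tercile (60.6 and 94.8 CPM, log2 ratio -0.65, interval -0.75 to -0.55), the middle tercile (62.3 and 78.2 CPM, -0.33, -0.43 to -0.22) and the periportal tercile (56.0 and 82.8 CPM, -0.56, -0.66 to -0.47), and all 8 genes were lower in each tercile. Mitotic genes were lower in the pericentral tercile, with 31.4 CPM (29.1 to 33.8) and 57.9 CPM (54.8 to 61.2), -0.88 (-1.02 to -0.75). They were higher in the middle tercile, with 63.9 CPM (60.6 to 67.4) and 44.6 CPM (41.8 to 47.5), 0.52 (0.40 to 0.64). In the periportal tercile they were 62.0 and 64.6 CPM, -0.06 (-0.16 to 0.04). Single cells weighed on these sums: without the cell with the most member counts in each library and tercile the 3 ratios were -0.74 (-0.89 to -0.60), 0.27 (0.15 to 0.40) and 0.15 (0.05 to 0.26), so that the periportal sum changed sign. Without the 5 such cells, an alternative added after the data were seen, they were -0.45, 0.17 and 0.19.

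In the pericentral tercile 13 of 34 members with at least 20 counts were at least 2-fold lower in the library labelled AEG-1DMAC and 0 higher, beside 2.9% and 1.79% of all genes. The count was 10 without 1 cell per library, beside 2.84% of all genes, and without 5 cells 6. The median of the 34 was -0.71, beside 0.02 for all genes, and 33 of the 34 were lower. Cdk1 had 27 and 92 counts (1.253 and 4.17 CPM), a log2 ratio of -1.74 (-2.41 to -1.10). Top2a had 44 and 118 counts (2.04 and 5.35 CPM), -1.39 (-1.92 to -0.88), but 33 of the 118 lay in 1 cell and the value without it was -0.92 (-1.48 to -0.38), under 2-fold. The spindle gene Hmmr had 18 and 58 counts, -1.66 (-2.51 to -0.87). Rrm2 had 157 and 435 counts, -1.44 (-1.71 to -1.17), but 94 of the 435 lay in 1 cell and the value without it was -1.11 (-1.39 to -0.83). Among the other 2-fold members were Plk1 (-1.48), the ubiquitin enzyme Ube2c (-1.19), Mcm5 (-1.22) and Mcm6 (-1.09).

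In the middle tercile 5 of 35 members were at least 2-fold higher in the library labelled AEG-1DMAC and 0 lower, beside 1.96% and 3.34% of all genes, and 20 of the 25 mitotic genes were higher. The 5 were Ccnb2, the spindle midzone gene Prc1 (51 and 19 counts, 1.40), Kif11 (38 and 17 counts, 1.13), Hmmr (53 and 24 counts, 1.11) and Foxm1 (31 and 15 counts, 1.02). Ccnb2 had 108 and 28 counts (5.05 and 1.34 CPM), 1.92 (1.31 to 2.57). Without 1 cell per library Ccnb2 stayed at 1.72 (1.10 to 2.38) and was the only one of the 5 past 2-fold; Hmmr, with 25 of its 53 counts in that cell, was at 0.16. In the periportal tercile 4 of 35 members were at least 2-fold lower and 0 higher, beside 4.13% and 1.83% of all genes, and without 1 cell per library 2 were lower and 1 higher, beside 4.11% and 1.80%. Aurkb there had 13 and 59 counts, -2.04 (-3.03 to -1.16), and Ccnb2 had 191 and 106 counts, 0.99 (0.64 to 1.34). In the library labelled AEG-1fl/fl, 1 periportal cell held 404 of the 1835 mitotic counts of that tercile, and 1 hepatocyte held 19 Aurkb counts. The periportal Aurkb value without 1 cell is not given here.

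**Figure D5:**
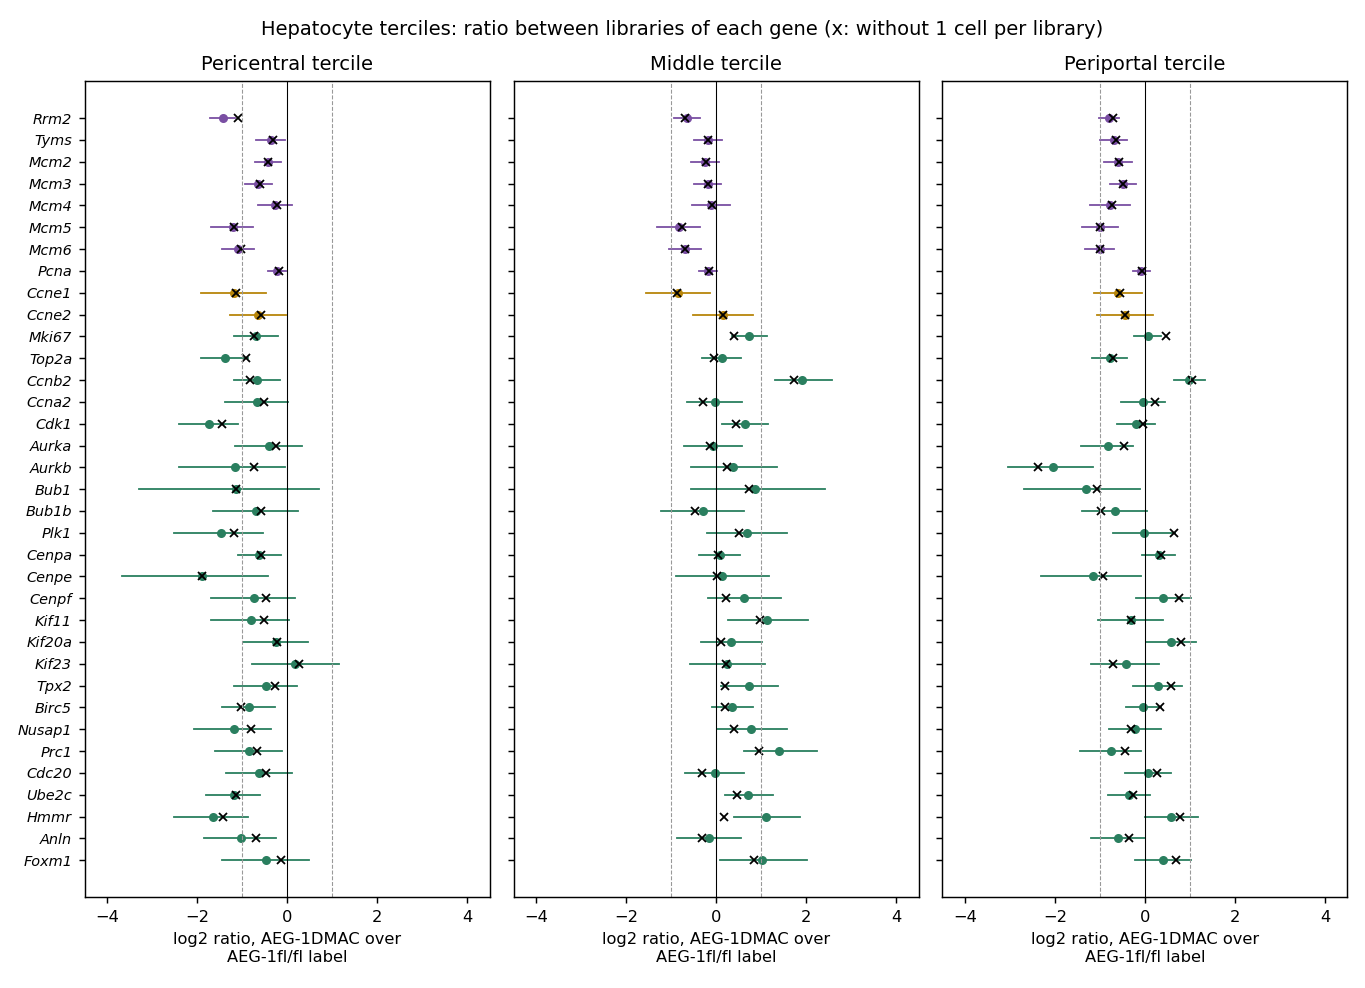
Log2 ratio of each member between the library labelled AEG-1DMAC and the library labelled AEG-1fl/fl in the pericentral, middle and periportal tercile of hepatocytes; coloured points with Clopper-Pearson 95% intervals use all cells (purple S phase, yellow G1/S cyclins, green mitotic), crosses leave out the cell with the most member counts in each library, and dashed lines mark 2-fold. The 8 purple points lie below 0 in each tercile, 33 of 34 tested members lie below 0 in the pericentral tercile, and Ccnb2 stands at 1.92 in the middle tercile and at 1.72 without 1 cell per library.

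Mitotic genes were also compared between the terciles of 1 library. In the library labelled AEG-1DMAC the pericentral tercile had a mitotic log2 ratio of -0.98 (-1.12 to -0.85) over the periportal tercile, and 9 of 23 mitotic genes were at least 2-fold lower, beside 2.9% of all genes, and without 1 cell per tercile and library the ratio was -0.93 (-1.06 to -0.79) with 8 of 22. In the library labelled AEG-1fl/fl the same ratio was -0.16 (-0.26 to -0.06) with 0 of 25 mitotic genes at least 2-fold lower, beside 3.19%, and without 1 cell it was -0.03 (-0.14 to 0.09). There the middle tercile had -0.54 (-0.65 to -0.42) over the periportal tercile and 5 of 25 mitotic genes at least 2-fold lower, beside 1.09% of all genes. That ratio was -0.17 (-0.29 to -0.05) without 1 cell per tercile, with 1 of 25, beside 0.966%. S phase genes had log2 ratios of 0.11 and 0.19 (interval of the latter 0.11 to 0.28) for the pericentral over the periportal tercile in the 2 libraries. At 6000 counts per hepatocyte, 24 of 434 (5.53%, 3.57% to 8.12%) and 43 of 397 (10.8%, 7.95% to 14.3%) pericentral cells had 3 or more member counts, against 31 of 434 (7.14%) and 23 of 396 (5.81%) in the middle and 29 of 434 (6.68%) and 21 of 396 (5.30%) in the periportal tercile. Macrophage markers in the terciles were 9.26 and 8.80, 14.4 and 12.8, and 7.86 and 7.11 per 10000 in the same order of terciles. Endothelial markers were 2.85 and 2.26, 4.38 and 2.59, and 2.41 and 1.71 per 10000, and so parted the libraries more in the middle tercile. The part of either in these ratios was not tested.

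In macrophages the libraries were closer than in the pericentral hepatocytes. All members together had a log2 ratio of -0.24 (-0.31 to -0.16), S phase genes -0.13 (-0.24 to -0.02) and mitotic genes -0.35 (-0.46 to -0.25), beside a median of -0.09 for all genes. Of 35 members 25 were lower in the library labelled AEG-1DMAC, but only Ube2c, with 26 and 116 counts (7.18 and 15.9 CPM), was at least 2-fold lower (-1.15, -1.82 to -0.53) and 0 were higher, beside 3.29% and 2.43% of all genes. Without 1 cell per library 0 members passed 2-fold, beside 3.49% lower and 2.45% higher of all genes, and the mitotic ratio was -0.19 (-0.30 to -0.09). Mki67 had 145 and 366 counts (40.05 and 50.3 CPM), -0.33 (-0.62 to -0.05). It was detected in 39 of 329 and 89 of 801 macrophages, which is 11.9% and 11.1%. Mean values over cells, each cell weighted alike, gave a mitotic ratio of 0.07, so no direction is set for macrophages.

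Stellate cells had the lowest ratio of all classes with at least 100 cells in a library, at -1.37 (-1.60 to -1.15) for all members and -1.91 (-2.26 to -1.58) for mitotic genes. Of 19 members with enough counts, 13 were at least 2-fold lower in the library labelled AEG-1DMAC and 0 higher, beside 5.33% and 1.37% of all genes, whose median was -0.16. Top2a had 3 and 50 counts, -3.33 (-5.66 to -1.70), and Mki67 10 and 68 counts, -2.04 (-3.16 to -1.07). In 1 cell of the library labelled AEG-1fl/fl lay 26 of these Top2a and 44 of these Mki67 counts, and without 1 cell per library the ratios were -2.27 (-4.64 to -0.55) and -0.68 (-1.97 to 0.48). The mitotic genes leaned on 2 cells of the library labelled AEG-1fl/fl: without 1 cell per library the ratio over all members was -0.94 (-1.18 to -0.70) and 7 of 14 members were 2-fold lower, beside 5.20% of all genes, and without 5 cells it was -0.77, with Mki67 at 0.47 and Hmmr at 0.51, the opposite sign.

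Endothelial cells differed little between libraries in the sums, at -0.05 (-0.19 to 0.10) for all members beside a median of -0.18 for all genes, with 2 of 29 members at least 2-fold higher (Nusap1 and Anln) and 1 lower (Mcm4), beside 2.97% and 4.12% of all genes. Without 1 cell per library 0 of 26 were higher and 5 lower, beside 2.69% and 4.75%. In T and NK cells the sum over members was 0.37 (0.17 to 0.57) and turned to -0.37 (-0.66 to -0.09) without 1 cell per library. There 3 of 17 members were at least 2-fold higher and 1 lower, beside 3.21% and 8.74% of all genes, and the lower one was Rrm2 with 12 and 54 counts, -1.35 (-2.39 to -0.43). With 1 cell per library left out, 0 of 10 were higher and 1 lower (Mki67), beside 3.22% and 9.14%, and Rrm2, with 10 and 36 counts, was at -0.999 (-2.17 to 0.04), short of 2-fold. Cholangiocytes likewise went from 0.17 (-0.05 to 0.38) to -0.73 (-1.04 to -0.42) without 1 cell per library. Of 13 cholangiocyte members with enough counts 1 was at least 2-fold higher (Mcm5) and 1 lower (Cenpf), beside 2.01% and 7.27% of all genes, and without 1 cell per library 0 of 11 were higher and 5 lower, beside 2.04% and 7.66%. In both of these small classes the sign of the sum thus turned on 1 cell per library.

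Of a wider list of 83 cell cycle genes outside the members, 82 were in the tables. In hepatocytes 15 of the 16 replication genes were lower in the library labelled AEG-1DMAC, with a median of -0.32, and 2 of them, Cdc6 and Uhrf1, were at least 2-fold lower, beside 3.99% of all genes. Uhrf1, which carries DNA methylation through replication, had 119 and 279 counts, -1.17 (-1.497 to -0.86). E2f8, a repressor of the E2F family, had 322 and 832 counts (4.69 and 11.7 CPM), -1.31 (-1.505 to -1.13). Of 31 further mitosis genes 23 were lower, with a median of -0.21, while Cdca3 (11.5 and 7.34 CPM, 0.65) and the cyclin gene Ccnf (17.0 and 11.01 CPM, 0.62) were among the 3 with the highest ratio. The 18 genes of G1 and E2F were split 9 and 9. The inhibitor and p53 target genes, of which 9 of 12 were lower, held the highest levels: Cdkn1a, which encodes the inhibitor p21, had 153 and 144 CPM in hepatocytes, a log2 ratio of 0.09 (0.05 to 0.13), and 113 and 118 CPM in macrophages.

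The terciles differed in this wider list too. In the pericentral tercile 13 of 76 genes were at least 2-fold lower and 1 higher, beside 2.9% and 1.79% of all genes, and all 16 replication genes were lower. The G1 cyclin gene Ccnd1 had 292 and 876 counts (13.5 and 39.7 CPM), -1.55 (-1.75 to -1.36), while Ccnd2 had 142 and 83 counts, 0.81 (0.41 to 1.22). In the middle tercile 1 of 75 genes was at least 2-fold lower and 1 higher, beside 3.34% and 1.96% of all genes. The periportal tercile had 5 of 79 lower and 1 higher, beside 4.13% and 1.83%. Values of this wider list without single cells are not given here. In the middle tercile Cdca3 had 289 and 106 counts, 1.42 (1.09 to 1.75), and E2f8 115 and 286 counts, -1.34 (-1.67 to -1.03). In macrophages 4 of 80 genes were at least 2-fold lower and 3 higher, shares near the 3.29% and 2.43% of all genes, and the inhibitor gene Cdkn2c had 44 and 228 counts (12.2 and 31.4 CPM), -1.37 (-1.87 to -0.90).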

How the data were processed

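Single-cell gene counts of fixed liver were measured in 2 libraries, 1 per genotype label. The values deposited by the authors are raw counts for each gene in each cell, made with Cell Ranger 7.1.0 on mm10 per the labels (the study's methods name another version), with no normalization, and Seurat is also named in their notes. Members and lists were chosen with earlier results of these data known. Cells under 100 genes or over 10% of mitochondrial reads were dropped. A cell was gated to a class if at least 2 markers of its list were seen and their counts per 10000 reached a minimum: 60 for macrophages, 30 for endothelial cells, stellate cells and neutrophils, 15 for B and dendritic cells, and 7 for cholangiocytes and T and NK cells. These minimums were set on the marker distributions without the cell cycle genes. Cells near a second class were set apart as mixed, and hepatocytes were cells that passed no list and had at least 300 hepatocyte marker counts per 10000 and 6000 counts in all. The other cells stayed ungated, and no doublet caller was run. Terciles were cut within each library by log2 of pericentral over periportal markers, with 1 added per 10000. Counts were summed per class and divided by all counts of the class (CPM). Ratios were taken for genes with at least 20 counts over both libraries. To compare shares of cells at 1 depth, 2000 counts were drawn per cell without replacement and shallower cells, 54 and 135 of the macrophages, were left out. Any member could be named. Of the wider list, the 3 genes of highest ratio, the 3 of lowest ratio and the 5 of highest level in a class could be named, and of all other genes the 10 most enriched in macrophages with at least 3 member counts. The ratio and thinning steps were tested on simulated data. Python 3.11.15, NumPy 2.4.6, SciPy 1.17.1, pandas 2.3.3 and matplotlib 3.10.9 were used. Precision is set by depth, 732 to 716497 and 826 to 587300 counts per kept cell in the libraries labelled AEG-1DMAC and AEG-1fl/fl, and by having 1 library per label. Alternatives changed the gate, the cell filter, the scaling, the depth drawn, the cut of terciles, the count minimum and the cells left out. Promoters came from RefSeq.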

Additional observations from a re-analysis of the deposited data

Results flagged for a closer look

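Terciles were compared with each other, and other nonparenchymal classes except neutrophils with macrophages. In 6 of these comparisons the intervals of the ratio between libraries lay on opposite sides of 0 in the pair. Opposite signs with an interval that spans 0 are not listed, and the differences between classes were not tested. The log2 ratio over all members was 0.37 in T and NK cells and 0.70 in dendritic cells, against -0.24 in macrophages. That of S phase genes was 0.37 in cholangiocytes, against -0.13 in macrophages. That of mitotic genes was 0.80 in T and NK cells and 0.89 in dendritic cells, against -0.35 in macrophages, and -0.88 in the pericentral tercile of hepatocytes, against 0.52 in the middle tercile. Without 1 cell per library the T and NK, dendritic and cholangiocyte values of these lists became -0.37, 0.06, -0.48, -0.74 and -0.33, in the order all members in T and NK and in dendritic cells, S phase genes in cholangiocytes, and mitotic genes in T and NK and in dendritic cells, while the 2 hepatocyte values kept their signs at -0.74 and 0.27.

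Cells outside the comparisons also held member RNA. In cells with markers of a pair of classes, set apart as mixed, the members summed to 283 CPM in the library labelled AEG-1DMAC and 627 CPM in the library labelled AEG-1fl/fl. In cells that no gate took they summed to 214 and 338 CPM.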

How the results depend on the processing

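No paired analysis was possible because each label has 1 library and the 2 libraries share only the replicate number 1. Over 133 results and 826 alternative values, 540 stayed within the counting interval or count range of the reported value, 272 moved and 14 changed sign after a call, and 456 of 486 log2 ratios kept their sign. The level of macrophages over hepatocytes, 5.03-fold and 4.67-fold in the libraries labelled AEG-1DMAC and AEG-1fl/fl, was 4.26 and 3.88 as a mean over cells, 5.76 and 5.83 under a stricter gate and 4.39 and 4.02 without the 5 cells with the most member counts. Leaving out 5 cells and drawing 6000 counts were chosen after seeing the data. The share of hepatocytes in the library labelled AEG-1DMAC was 3.84% with at least 2 counts, 0.307% with at least 5, 2.69% at 4000 counts, 6.45% at 6000 and 54.7% unthinned; in the library labelled AEG-1fl/fl it was 5.05%, 0.421%, 3.45%, 7.32% and 59.5%. The macrophage share was 14.9%, 5.82%, 20.5%, 27.6% and 32.2%, and 17.3%, 5.86%, 18.5%, 26.6% and 31.5%, in the same order. S phase over mitotic counts without Pcna were 0.767 and 1.14 in hepatocytes and 0.669 and 0.539 in macrophages; without 1 cell they were 1.19 and 1.65 in hepatocytes and 0.786 in macrophages labelled AEG-1DMAC.

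The log2 ratio of S phase genes in hepatocytes, -0.52, was -0.38 as a mean over cells and -0.45 without 5 cells. That of mitotic genes, -0.10, was 0.012 as a mean over cells, -0.031 without 1 cell and 0.013 without 5 cells, so its sign is not set. In the pericentral tercile it was -0.66 under a stricter cell filter, -0.74 without 1 cell and -0.45 without 5. In the middle tercile it was 0.30 as a mean over cells, 0.71 under the cell filter, 0.65 under the stricter gate, 0.69 with terciles cut over both libraries, 0.27 without 1 cell and 0.17 without 5. In the periportal tercile it was 0.29 as a mean over cells, -0.29 under the cell filter, -0.31 with pooled terciles, 0.15 without 1 cell and 0.19 without 5. All members had -0.15 in macrophages when scaled by the median ratio of all genes, -0.073 as a mean over cells, -0.37 under the stricter gate and -0.15 without 5 cells, and mitotic genes there had 0.074 as a mean over cells and 0.069 without 5 cells. Stellate cells had -0.94 without 1 cell and -0.77 without 5, with Mki67 at 0.47 and Hmmr at 0.51 without 5. Hmmr in the middle tercile was -0.059 without 5 cells. S phase genes in cholangiocytes were -0.032 as a mean over cells, -0.48 without 1 cell and -0.50 without 5. In T and NK cells all members were -0.37 and -0.31 and mitotic genes -0.74 and -0.19 without 1 and without 5 cells.

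Of members at least 2-fold lower, hepatocytes had 1 under the cell filter, 1 without 1 cell and 0 without 5; the pericentral tercile had 6 without 5 cells; the middle tercile had 1 with pooled terciles; the periportal tercile had 2 at a minimum of 50 counts, 9 under the cell filter, 7 under the stricter gate, 8 with pooled terciles, and 2 without 1 or 5 cells; and macrophages had 5 under the stricter gate and 0 without 1 or 5 cells. Of members at least 2-fold higher, the pericentral tercile had 1 with pooled terciles; the middle tercile had 8 under the stricter gate, 1 without 1 cell and 2 without 5; the periportal tercile had 1 each when scaled by the median ratio of all genes, with pooled terciles and without 1 or 5 cells; and macrophages had 1 under the stricter gate. The causes were not tested. Depth limits the small classes, in which most members stayed under 20 counts.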

Other observations

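Dendritic cells, with 17 and 31 cells in the libraries labelled AEG-1DMAC and AEG-1fl/fl, had the highest member level of all gated classes in the first library, at 1710 and 1052 CPM, and 84 of their 97 and 77 of their 115 mitotic counts lay in 1 cell. Ccnd1, the G1 cyclin outside the member list, had 521 and 266 CPM in cholangiocytes, a log2 ratio of 0.97 (0.72 to 1.21), and 24.7 and 46.1 CPM in hepatocytes, -0.90. Btg2, an antiproliferative p53 target, had 59.2 and 84.9 CPM in hepatocytes, -0.52 (-0.58 to -0.46), and Mdm2, the p53 ligase, 86.5 and 70.5 CPM, 0.29 (0.24 to 0.35).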
